A study of Drosophila melanogaster with 12 samples.

Results

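Loss of the Activin effector Smox and activation of the Activin receptor Baboon are opposite changes to one pathway, and 90 genes differed in the same direction in both. Of these, 50 genes were higher in smox carcass than in w1118 carcass and also higher in baboACT carcass than in MhcGal4 carcass, and 40 genes were lower in both. They were chosen by their measured levels. A gene entered when its name occurred once, its level was above 0 in all 4 groups and its mean over both groups was at least 1 FPKM in each experiment. FPKM, the unit of level, divides the fragments of a gene by the length of its transcript and by the size of the library. Both log2 ratios of group levels then had to be at least 0.7, or both at most -0.7. Cuticle, cytochrome P450, glutathione transferase, Jonah protease, heat shock and yellow family genes were left out by name, with 4 single genes and all of chromosome 4. The members were thus 90 of 7595 genes that met the level minimum and were not left out, in tables of 13650 rows each. Because these values chose the genes, the fold changes and the q-values of the same contrasts are given below as descriptions.

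The tissue was carcass of late foraging last-instar larvae, that is, body wall muscle with epidermis after the gut had been dissected away. The smox larvae carried the allele Smox(Smad2)F4 over a Y chromosome and were therefore male by genotype, and their comparison stock was w1118, for which the sources used here state no sex. Both grew on yeast paste on apple juice plates with no treatment. The baboACT larvae had the genotype tub-Gal80ts/+;MhcGal4/baboACT and the MhcGal4 larvae tub-Gal80ts/+;MhcGal4/+. Gal80ts is a temperature-sensitive inhibitor of Gal4 that both genotypes carried. MhcGal4 drives expression in muscle, whereas the smox larvae were mutant in every cell of the carcass, epidermis included. Both genotypes ate standard vial food and were kept at 30 °C for 12 h before RNA was taken. Each group had 3 libraries, 12 in all, and the labels do not say whether these came from separate animals. The experiments shared no library and differed in food, temperature, duration and the cells that were changed.

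In flies, Activin-type ligands bring a type II receptor together with the type I receptor Baboon, which phosphorylates Smox. Phosphorylated Smox enters the nucleus with the common Smad, Medea, and changes transcription. In larvae the pathway is known for its part in muscle growth, neuromuscular junction assembly and the timing of the ecdysone pulses that lead to metamorphosis.

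With 1 deposited level for each gene in each group, spread among libraries and depth of sequencing are both unknown. Each experiment was tabulated separately, and levels are compared within an experiment only. Smox, an X-linked gene, stood at 1.40 FPKM in smox and 23.9 FPKM in w1118, and at 32.5 FPKM in baboACT and 29.8 FPKM in MhcGal4. The Baboon gene, babo, stood at 15.6 FPKM in baboACT and 13.2 FPKM in MhcGal4, a log2 ratio of 0.23. In smox it stood at 12.6 FPKM and in w1118 at 14.7 FPKM. Whether the level in baboACT includes reads of the transgene is unknown. The 22 measured genes of a list of sarcomere genes had a median log2 ratio of 0.08 in smox over w1118 and -0.27 in baboACT over MhcGal4, with 14 and 5 of them above 0. Mhc, the muscle myosin heavy chain gene, was listed at 0 in smox and in MhcGal4, so an exact 0 in these tables may be a failed estimate. In a tissue of mixed cells, fewer cells of a type and less RNA per cell cannot be told apart. The median log2 ratio over all measured genes was -0.15 for smox over w1118 and 0.08 for baboACT over MhcGal4.

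Differences in the same direction were the less common case, and the 50 and 40 members made up 0.658% and 0.527% of the eligible genes. Ratios above the 0.7 limit were found for 473 genes in smox over w1118, or 6.23% of those eligible, and for 562 genes in baboACT over MhcGal4, or 7.4%. The 50 genes higher in both made up 10.6% of the first set and 8.9% of the second. Ratios under -0.7 were found for 648 genes, or 8.53%, in smox over w1118 and for 220 genes, or 2.9%, in baboACT over MhcGal4. The 40 genes lower in both made up 6.17% and 18.2% of these sets. By comparison, 244 genes, or 3.21%, were lower in smox and higher with baboACT, and 93 genes, or 1.22%, were higher in smox and lower with baboACT. With no limit on size, 46% of the 7595 genes had ratios below 0 in smox and above 0 with baboACT, while 13.9% were above 0 in both and 21% below 0 in both. Across these genes the ratios of both experiments had a Pearson r of -0.26 and a Spearman rho of -0.37, given as a description, since genes are not independent replicates.

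**Figure D1:**
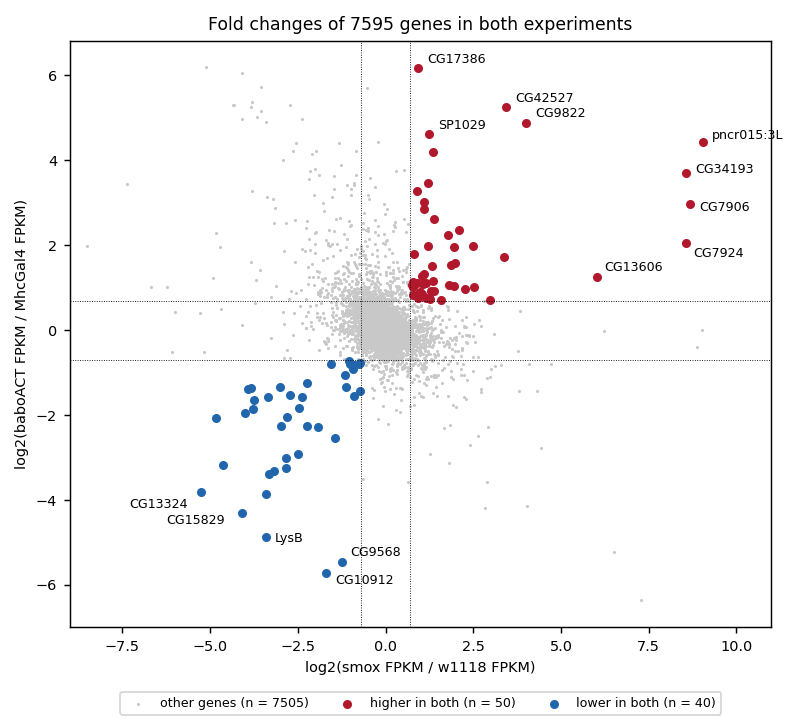
Each point is 1 of 7595 genes, with the log2 ratio of smox to w1118 FPKM on the horizontal axis and that of baboACT to MhcGal4 FPKM on the vertical axis, and dotted lines at 0.7 and -0.7. The 50 genes higher in both lie in the upper right, where 4 genes have smox ratios above 8.5 on the log2 scale, and the 40 genes lower in both lie in the lower left.

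Of all 90 members, 81 had a q under 0.05 for smox and 79 for baboACT, as did 57.7% and 43.3% of eligible genes. Both values were under 0.05 for 74 of the 90, and for 30.5% of eligible genes.

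The 50 genes higher in both ranged widely in level. Their median was 21.6 FPKM in smox against 4.91 FPKM in w1118, and 21.01 FPKM in baboACT against 4.82 FPKM in MhcGal4, where the medians over all eligible genes were 12.0 FPKM in w1118 and 12.6 FPKM in MhcGal4. The log2 ratio had a median of 1.31 in smox, with a range from 0.75 to 9.04, and a median of 1.31 with baboACT, with a range from 0.70 to 6.18. In 26 of the 50 the ratio was larger in smox, and in 24 it was larger with baboACT. The authors' deposited tables gave a q under 0.05 to 47 of the 50 in smox, where 17.5% of eligible genes were higher at that q, and to 44 with baboACT, where 28.8% were. Both q-values were under 0.05 for 42 of them, against 3.16% of eligible genes. Where a member is named below without a q, its q was under 0.05 in both of the authors' deposited tables, and values of genes that are no members are given as levels or ratios only unless a q stands beside them.

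**Figure D2:**
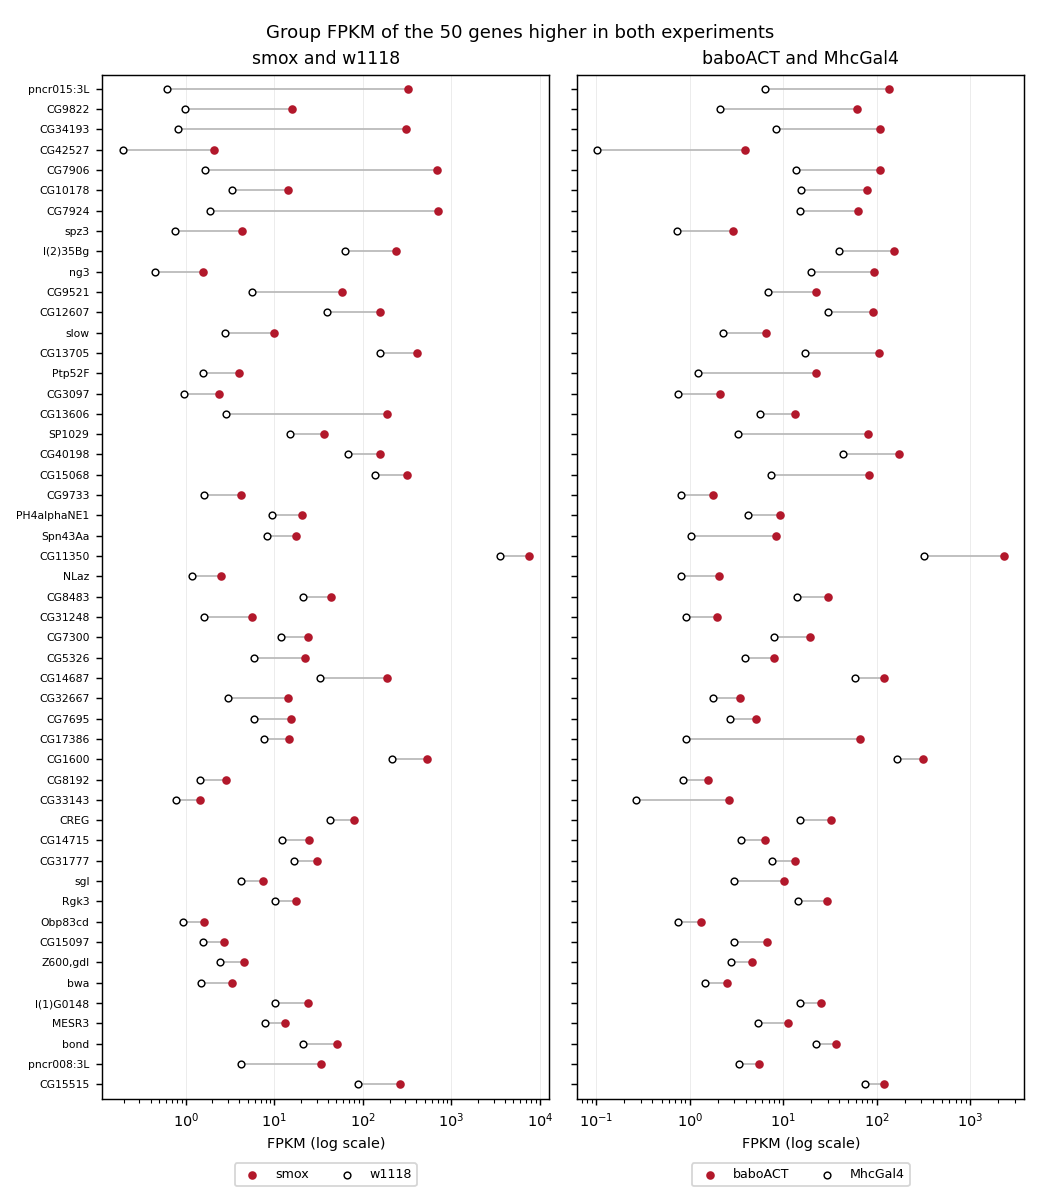
Each line is 1 of the 50 genes higher in both, ordered by the smaller of its 2 log2 ratios, with filled points for smox (left) and baboACT (right), open points for w1118 (left) and MhcGal4 (right), and FPKM on a log axis. CG11350 is the highest gene in all 4 groups, and the lines of pncr015:3L, CG34193, CG7906 and CG7924 are longest in the left panel.

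A few genes were close to absent in w1118 and abundant in smox. The noncoding RNA gene pncr015:3L, now named lncRNA:CR33948, stood at 319 FPKM in smox against 0.607 FPKM in w1118, and at 136 FPKM in baboACT against 6.36 FPKM in MhcGal4. Its log2 ratios were 9.04 and 4.42, the highest smox ratio of any member, although its q in the authors' deposited table was 0.328 for smox. CG34193 on arm 2R stood at 306 FPKM in smox against 0.812 FPKM in w1118 and at 108 FPKM in baboACT against 8.36 FPKM in MhcGal4, with log2 ratios of 8.56 and 3.69. Both genes were thus at or below 1 FPKM in w1118 and above 100 FPKM in each manipulated carcass. CG13606 differed between the experiments, at 185 FPKM in smox against 2.85 FPKM in w1118 and at 13.5 FPKM in baboACT against 5.64 FPKM in MhcGal4. The gene pncr008:3L, now CG33946 and annotated as protein coding, had 33.4 FPKM in smox against 4.25 FPKM in w1118, and 5.46 FPKM in baboACT against 3.35 FPKM in MhcGal4, where its q in the authors' deposited table was 0.362.

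Regulators and signaling genes were also among the members higher in both. CG42527, now Hr4, encodes an ecdysone-inducible nuclear receptor and lies at chrX:1891620-1898128 in the deposited coordinates, for which no build is named. It stood at 2.08 FPKM in smox against 0.193 FPKM in w1118 and at 3.93 FPKM in baboACT against 0.103 FPKM in MhcGal4, with log2 ratios of 3.43 and 5.25. Hr4 was therefore low in every group and lowest in both comparison groups. The gene spz3, which encodes a ligand of the Spätzle family, stood at 4.28 FPKM in smox against 0.765 FPKM in w1118 and at 2.91 FPKM in baboACT against 0.741 FPKM in MhcGal4. Its log2 ratios were 2.48 and 1.97. Ptp52F, a receptor tyrosine phosphatase known from motor axon guidance, had 3.95 FPKM in smox against 1.55 FPKM in w1118 and 22.6 FPKM in baboACT against 1.24 FPKM in MhcGal4. Its log2 ratio was 1.35 in smox and far larger with baboACT, at 4.19. Slowdown, or slow, which tunes integrin adhesion between muscle and tendon, stood at 9.95 FPKM in smox against 2.75 FPKM in w1118 and at 6.58 FPKM in baboACT against 2.27 FPKM in MhcGal4. Rgk3, a small GTPase of the RGK family, stood at 17.8 FPKM in smox against 10.2 FPKM in w1118 and at 29.5 FPKM in baboACT against 14.6 FPKM in MhcGal4. The gene l(1)G0148, now Cdc7, a kinase of replication origins, had 23.8 FPKM in smox against 10.2 FPKM in w1118 and 25.5 FPKM in baboACT against 15.1 FPKM in MhcGal4. Rgk3 and Cdc7 lie outside the rule that fixed which members are named, and were added with their values in view, as were other members named below beyond that rule.

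Enzyme and secreted protein genes were found among the members higher in both. CG10178, now Ugt301D1, a UDP-glycosyltransferase that conjugates small molecules, stood at 14.3 FPKM in smox against 3.32 FPKM in w1118 and at 78.5 FPKM in baboACT against 15.4 FPKM in MhcGal4. Its log2 ratios, 2.10 and 2.35, were among the most even of the larger ones. The list of other UDP-glycosyltransferases and conjugating enzymes held no member among its 20 measured genes. SP1029, an aminopeptidase gene, stood at 35.9 FPKM in smox against 15.2 FPKM in w1118 and at 80.0 FPKM in baboACT against 3.26 FPKM in MhcGal4. Spn43Aa, a serine protease inhibitor, stood at 17.8 FPKM in smox against 8.26 FPKM in w1118 and at 8.42 FPKM in baboACT against 1.04 FPKM in MhcGal4. Both genes had ratios above 3 on the log2 scale with baboACT and below 1.3 in smox. They were the only members among 26 measured genes of the list of serine proteases and serpins, where SP1029 stands although it is an aminopeptidase gene. That list was not complete, and did not hold, for example, the serine protease genes yip7, deltaTry and CG16996, which were lower in both. Its members therefore do not show how serine protease genes differed as a family. At a q below 0.05, the authors' deposited tables gave 9 genes of the list as higher and 6 as lower in smox. With baboACT they gave 12 as higher and 2 as lower.

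Several genes of sugar, lipid and matrix metabolism had ratios closer to the limit. The gene sgl encodes UDP-glucose dehydrogenase, which supplies precursors of proteoglycan chains, and stood at 7.52 FPKM in smox against 4.26 FPKM in w1118 and at 10.3 FPKM in baboACT against 2.95 FPKM in MhcGal4. PH4alphaNE1, a prolyl 4-hydroxylase subunit, stood at 20.7 FPKM in smox against 9.37 FPKM in w1118 and at 9.22 FPKM in baboACT against 4.26 FPKM in MhcGal4. A long-chain fatty acid elongase gene, bond, stood at 50.6 FPKM in smox against 20.9 FPKM in w1118 and at 37.2 FPKM in baboACT against 22.4 FPKM in MhcGal4. The alkaline ceramidase gene bwa was less abundant, with 3.33 FPKM in smox against 1.495 FPKM in w1118 and 2.50 FPKM in baboACT against 1.47 FPKM in MhcGal4. These log2 ratios all lay between 0.73 and 1.80. The gene l(2)35Bg, now CIAPIN1, of cytosolic iron-sulfur cluster assembly, reached higher levels, at 238 FPKM in smox against 62.2 FPKM in w1118 and 153 FPKM in baboACT against 39.6 FPKM in MhcGal4. Its log2 ratios were nearly equal, at 1.94 and 1.95. Its row shares a locus with yellow-c, a gene left out by name, which stood at 108 FPKM in smox against 15.1 FPKM in w1118 and at 41.5 FPKM in baboACT against 9.12 FPKM in MhcGal4, and reads of overlapping genes may not have been separable.

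Genes tied to stress and immunity were also found here. NLaz, a lipocalin known from stress resistance and sugar balance, had 2.48 FPKM in smox against 1.17 FPKM in w1118 and 2.06 FPKM in baboACT against 0.816 FPKM in MhcGal4. It was the single member among 22 measured genes of the oxidative and metal stress list. CG15068, now BomS6, belongs to the Bomanins, short secreted peptides induced by Toll signaling. It stood at 313 FPKM in smox against 136 FPKM in w1118 and at 82.2 FPKM in baboACT against 7.45 FPKM in MhcGal4, where its q in the authors' deposited table was 0.368. CG17386, now Achl, stood at 14.6 FPKM in smox against 7.71 FPKM in w1118 and at 66.5 FPKM in baboACT against 0.921 FPKM in MhcGal4. Its log2 ratios were 0.92 and 6.18, and the second was the highest with baboACT among the 50. CREG, which encodes a secreted glycoprotein, stood at 78.4 FPKM in smox against 42.4 FPKM in w1118 and at 32.8 FPKM in baboACT against 15.04 FPKM in MhcGal4. The list of 52 rows of antimicrobial and humoral immunity genes, of which 29 were measured, held no member. BomS6, deposited as CG15068, was not in that list. Of the 29, 7 were past the limit higher in smox and lower with baboACT, and 1 was past it the other way round. The list had a median log2 ratio of 0.62 in smox and -0.18 with baboACT.

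The most abundant member was CG11350, at 7528 FPKM in smox against 3496 FPKM in w1118 and at 2315 FPKM in baboACT against 322 FPKM in MhcGal4. CG13705 stood at 409 FPKM in smox against 158 FPKM in w1118 and at 105 FPKM in baboACT against 17.0 FPKM in MhcGal4. Their log2 ratios were 1.11 and 1.37 in smox and larger with baboACT, at 2.85 and 2.63. CG1600, now Drat, stood at 529 FPKM in smox against 214 FPKM in w1118 and at 317 FPKM in baboACT against 167 FPKM in MhcGal4. CG12607 stood at 155 FPKM in smox against 38.9 FPKM in w1118 and at 90.7 FPKM in baboACT against 30.4 FPKM in MhcGal4. Both of these genes had ratios between 0.92 and 1.99 on the log2 scale. CG14687 stood at 185 FPKM in smox against 32.5 FPKM in w1118 and at 121 FPKM in baboACT against 59.1 FPKM in MhcGal4. CG40198 stood at 158 FPKM in smox against 68.4 FPKM in w1118 and at 176 FPKM in baboACT against 44.1 FPKM in MhcGal4. Apart from Drat, these genes have no name beyond a CG number in the annotation used here, and all 6 were above 10 FPKM in every group. In all, 14 of the 50 genes reached 100 FPKM in at least 1 manipulated group, and 36 were at 1 FPKM or more in all 4 groups. Further genes without a name had wide gaps in both experiments. CG9822 stood at 15.9 FPKM in smox against 0.984 FPKM in w1118 and at 61.9 FPKM in baboACT against 2.09 FPKM in MhcGal4, with log2 ratios of 4.01 and 4.89. CG9521 stood at 58.4 FPKM in smox against 5.57 FPKM in w1118 and at 22.6 FPKM in baboACT against 6.86 FPKM in MhcGal4.

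CG9521 and ng3 lie in long loci where the same row position holds genes with other patterns and genes above 0 in both. The locus of CG9521 has 15 rows. Of these, CG12539 and CG14406 had log2 ratios of -3.79 and -2.93 in smox and of 3.28 and 4.01 with baboACT. CG9512 at the same locus had log2 ratios of 0.65 in smox and 1.14 with baboACT. The gene ng3, or new glue 3, is a salivary gland gene and stood at 1.56 FPKM in smox against 0.451 FPKM in w1118, and at 93.9 FPKM in baboACT against 19.9 FPKM in MhcGal4. In smox its q in the authors' deposited table was 0.369. It shares its locus of 9 rows with the glue gene Sgs4, which stood at 1.17 FPKM in smox against 16.6 FPKM in w1118 and at 51.2 FPKM in baboACT against 1.34 FPKM in MhcGal4. CG14265 and Pig1 at that locus fell short of the level minimum. Their log2 ratios were 0.90 and 0.62 in smox and 1.85 and 1.67 with baboACT. Among the 8 measured genes of the salivary gland list, ng3 was the only one with both ratios above 0, and the other 7 were below 0 in smox and above 0 with baboACT. The summed level over the 25 rows of that list was 45.9 FPKM in smox, 521 FPKM in w1118, 2345 FPKM in baboACT and 98.3 FPKM in MhcGal4, and between 9 and 12 of its rows were listed at 0 in each group. Salivary gland transcripts thus differed in both contrasts, and their part in the value of ng3 was not tested.

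The other members higher in both had smaller ratios or low levels. Obp83cd, an odorant binding protein gene, stood at 1.62 FPKM in smox against 0.934 FPKM in w1118 and at 1.32 FPKM in baboACT against 0.742 FPKM in MhcGal4, and was the only one of the 50 with a q of 0.05 or more in both of the authors' deposited tables, at 0.101 and 0.151. CG32667, now ssp7, stood at 14.1 FPKM in smox against 2.96 FPKM in w1118 and at 3.47 FPKM in baboACT against 1.78 FPKM in MhcGal4, where its q in the authors' deposited table was 0.262. CG7695 and CG8192 likewise had a baboACT q of 0.291 and 0.052 in the authors' deposited table. CG33143 had a smox ratio of 0.89 and a baboACT ratio of 3.28 on the log2 scale, at 2.61 FPKM in baboACT against 0.269 FPKM in MhcGal4. The row Z600,gdl joins both of its genes and stood at 4.59 FPKM in smox against 2.41 FPKM in w1118 and at 4.68 FPKM in baboACT against 2.74 FPKM in MhcGal4. CG3097, CG9733, CG8483, CG31248, CG7300, CG14715, CG31777 and CG15097 had log2 ratios between 0.78 and 1.81 in both experiments.

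The 40 genes lower in both also differed widely in level. Their median was 1.00 FPKM in smox against 6.48 FPKM in w1118, and 3.11 FPKM in baboACT against 11.7 FPKM in MhcGal4. The median log2 ratio was -2.61 in smox, with a range from -5.25 to -0.73, and -1.84 with baboACT, with a range from -5.73 to -0.72. Levels under 1 FPKM were found for 20 of the 40 in smox and for 10 in baboACT. The authors' deposited tables gave a q under 0.05 to 34 of the 40 in smox, where 40.2% of eligible genes were lower at that q, and to 35 with baboACT, where 14.6% were. Both q-values were under 0.05 for 32 of the 40, against 2.92% of eligible genes. The loci of these genes were short, with a median of 1305.5 bases, against 3683.5 bases for the genes higher in both and 3966 bases for all eligible genes.

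**Figure D3:**
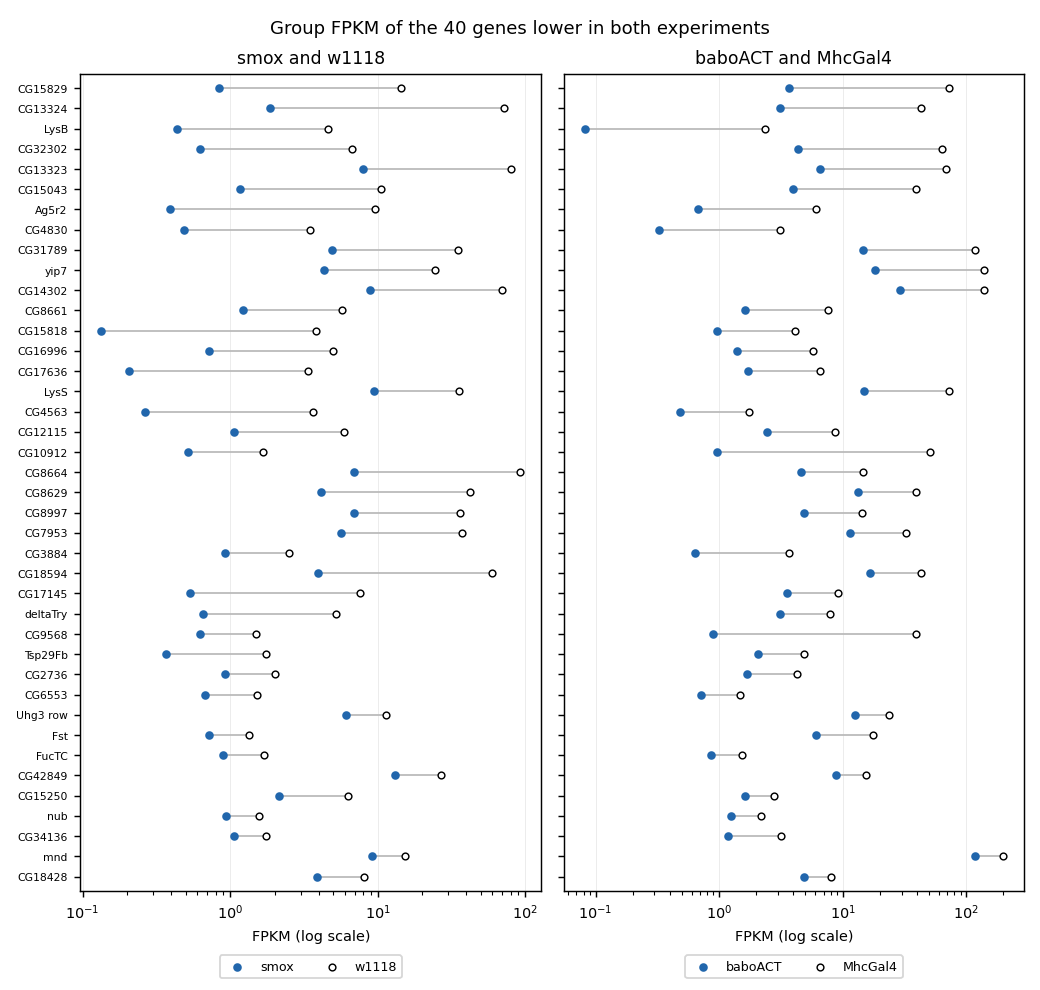
Each line is 1 of the 40 genes lower in both, ordered by the smaller absolute log2 ratio, with filled points for smox (left) and baboACT (right), open points for w1118 (left) and MhcGal4 (right), and FPKM on a log axis. Filled points lie left of open points throughout, and the line named Uhg3 row is the row of Uhg3 with 2 snoRNA genes.

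Genes of digestion were found among those lower in both. LysS, a lysozyme gene, stood at 9.39 FPKM in smox against 35.6 FPKM in w1118 and at 15.01 FPKM in baboACT against 72.9 FPKM in MhcGal4, with log2 ratios of -1.92 and -2.28. Its neighbor LysB was close to absent, at 0.435 FPKM in smox against 4.63 FPKM in w1118 and at 0.0815 FPKM in baboACT against 2.37 FPKM in MhcGal4. LysB had a q of 0.0780 for smox and 0.239 for baboACT in the authors' deposited tables, so its low levels did not reach a call in either. The serine protease gene yip7 stood at 4.34 FPKM in smox against 24.6 FPKM in w1118 and at 18.4 FPKM in baboACT against 140 FPKM in MhcGal4, with log2 ratios of -2.50 and -2.92. The trypsin gene deltaTry stood at 0.656 FPKM in smox against 5.24 FPKM in w1118 and at 3.14 FPKM in baboACT against 7.89 FPKM in MhcGal4. CG16996, now Phae1, another serine protease gene, stood at 0.715 FPKM in smox against 4.98 FPKM in w1118 and at 1.40 FPKM in baboACT against 5.72 FPKM in MhcGal4. Of these 5 genes, yip7 and LysS were above 20 FPKM in both comparison carcasses and the other 3 were below 10 FPKM in every group.

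The gut had been removed by dissection, and a list of 41 rows of midgut genes was examined as a whole. Its summed level was 94.4 FPKM in smox, 533 FPKM in w1118, 181 FPKM in baboACT and 640 FPKM in MhcGal4. Of the list, 12 genes were measured, with a median log2 ratio of -2.99 in smox and -1.09 with baboACT. The authors' deposited tables, at a q below 0.05, gave 9 of the 12 as lower and 1 as higher in smox, and 6 as lower and 0 as higher with baboACT. LysB, LysS, deltaTry and yip7 were the 4 members, and 3 further genes, Jon65Aiii, Jon65Aiv and Jon74E, passed the same values but were left out by name. The 8 measured genes that were no members include these 3, whose signs were fixed by passing the values. Of the 8, 7 had ratios below 0 in both experiments. Of the 41 rows, between 9 and 17 were listed at 0 in each group. The defining midgut gene mex1, which fell short of the level minimum, stood at 0.0480 FPKM in smox, 0.945 FPKM in w1118, 0.398 FPKM in baboACT and 8.17 FPKM in MhcGal4. Its q in the authors' deposited tables was 0.278 for smox and 0.000599 for baboACT. The summed level of the midgut list was thus lower in both manipulated carcasses. The sum, the median and the q counts include all 7 genes that passed the selection values, and so are not independent of the selection. The part of midgut transcripts in the values of the members lower in both was not tested.

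**Figure D4:**
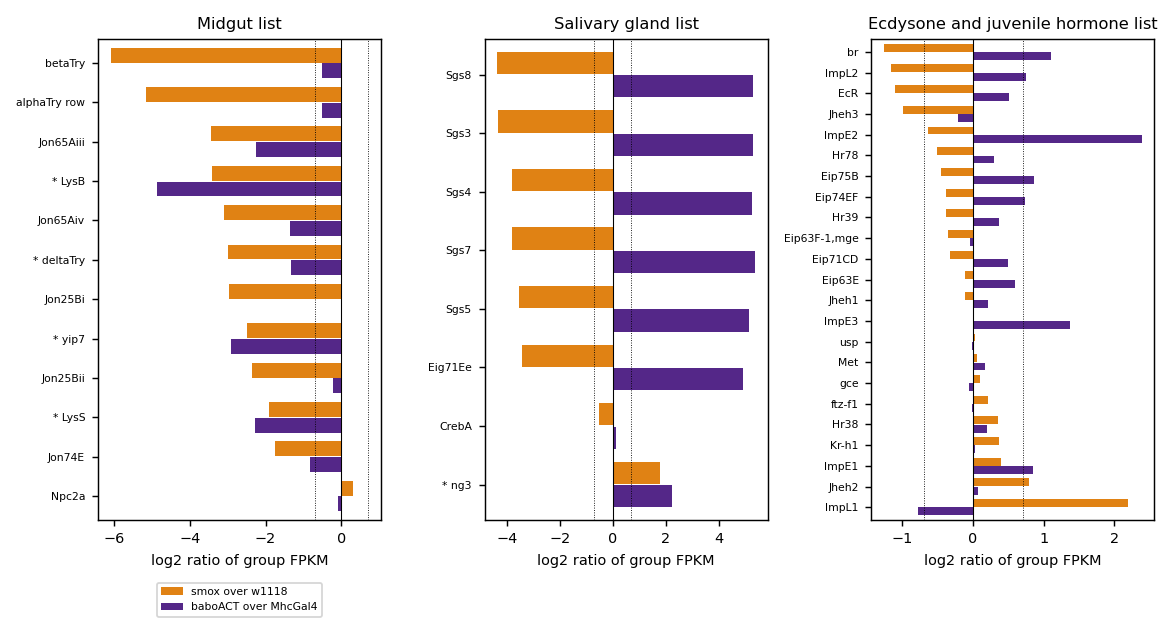
Bars give log2 ratios of group FPKM, smox over w1118 (orange) and baboACT over MhcGal4 (purple), for the measured genes of the midgut, salivary gland and ecdysone and juvenile hormone lists, with asterisks at members and dotted lines at 0.7 and -0.7. In the midgut panel 11 of 12 genes are below 0 in smox and all 12 with baboACT, in the salivary gland panel ng3 alone has both bars above 0, and in the hormone panel there is no member.

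A pair of acyl-CoA binding protein genes, whose products carry fatty acyl-CoA esters in the cytosol, was low in both experiments. CG15829, now Acbp6, stood at 0.845 FPKM in smox against 14.3 FPKM in w1118 and at 3.66 FPKM in baboACT against 72.4 FPKM in MhcGal4, with log2 ratios of -4.08 and -4.31. CG8629, now Acbp4, stood at 4.13 FPKM in smox against 42.2 FPKM in w1118 and at 13.2 FPKM in baboACT against 39.2 FPKM in MhcGal4, with log2 ratios of -3.35 and -1.57. Dbi, a further acyl-CoA binding protein gene nearby, is no member and stood at 50.8 FPKM in smox against 67.3 FPKM in w1118 and at 64.0 FPKM in baboACT against 48.5 FPKM in MhcGal4. Its ratios were small and had opposite signs, at -0.40 and 0.40 on the log2 scale. CG18594, now Pebp1, named for phosphatidylethanolamine binding, stood at 3.96 FPKM in smox against 59.6 FPKM in w1118 and at 16.6 FPKM in baboACT against 43.3 FPKM in MhcGal4.

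Wide gaps were also found in genes known only by CG number. CG13324 stood at 1.87 FPKM in smox against 71.4 FPKM in w1118 and at 3.08 FPKM in baboACT against 43.1 FPKM in MhcGal4, with log2 ratios of -5.25 and -3.80. CG13323 beside it stood at 8.02 FPKM in smox against 80.1 FPKM in w1118 and at 6.58 FPKM in baboACT against 69.3 FPKM in MhcGal4, with ratios of -3.32 and -3.40. Both were above 40 FPKM in each comparison carcass and below 10 FPKM in each manipulated one. CG31789 stood at 4.93 FPKM in smox against 35.1 FPKM in w1118 and at 14.5 FPKM in baboACT against 117 FPKM in MhcGal4. CG14302 stood at 8.89 FPKM in smox against 69.5 FPKM in w1118 and at 28.9 FPKM in baboACT against 138 FPKM in MhcGal4. CG32302 stood at 0.629 FPKM in smox against 6.66 FPKM in w1118 and at 4.34 FPKM in baboACT against 63.3 FPKM in MhcGal4. These 3 genes had log2 ratios between -3.87 and -2.26 and were above 5 FPKM in each comparison carcass. CG15043 had log2 ratios of -3.18 in smox and -3.31 with baboACT, and CG4830 had -2.85 and -3.26. CG12115 had -2.47 and -1.84.

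Some genes lower in both were far more affected in one experiment than in the other. CG10912 stood at 0.516 FPKM in smox against 1.67 FPKM in w1118 and at 0.956 FPKM in baboACT against 50.6 FPKM in MhcGal4, with log2 ratios of -1.70 and -5.73. CG9568 stood at 0.629 FPKM in smox against 1.499 FPKM in w1118 and at 0.898 FPKM in baboACT against 39.4 FPKM in MhcGal4, and its smox q in the authors' deposited table was 0.185. Both were below 2 FPKM in every group except MhcGal4. Ag5r2, an antigen 5-related gene, went the other way with 0.391 FPKM in smox against 9.64 FPKM in w1118 and 0.675 FPKM in baboACT against 6.07 FPKM in MhcGal4, or -4.62 and -3.17 on the log2 scale. CG8664 stood at 6.94 FPKM in smox against 92.7 FPKM in w1118 and at 4.62 FPKM in baboACT against 14.5 FPKM in MhcGal4. CG15818 had log2 ratios of -4.84 and -2.07, at 0.134 FPKM in smox against 3.83 FPKM in w1118, with a smox q of 0.0750 in the authors' deposited table. CG17636, CG4563 and CG17145 had smox ratios from -4.02 to -3.79 and baboACT ratios from -1.94 to -1.37.

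The remaining genes lower in both were mostly near the limit. The amino acid transporter gene mnd stood at 9.18 FPKM in smox against 15.2 FPKM in w1118, and at 117 FPKM in baboACT against 200 FPKM in MhcGal4. Its log2 ratios were -0.73 and -0.78, and it was the only member among 18 measured genes of the transporter list. The POU domain factor gene nub, known from wing and neural development, stood at 0.942 FPKM in smox against 1.58 FPKM in w1118 and at 1.26 FPKM in baboACT against 2.20 FPKM in MhcGal4. Frost, or Fst, a gene induced during recovery from cold, stood at 0.715 FPKM in smox against 1.33 FPKM in w1118 and at 6.08 FPKM in baboACT against 17.7 FPKM in MhcGal4, and its smox q in the authors' deposited table was 0.113. The tetraspanin gene Tsp29Fb had 0.369 FPKM in smox against 1.75 FPKM in w1118 and 2.08 FPKM in baboACT against 4.91 FPKM in MhcGal4. FucTC, a fucosyltransferase gene, had log2 ratios of -0.91 and -0.83, and the row of the snoRNA host gene Uhg3 had -0.92 in both. CG3884, CG2736 and CG6553 had log2 ratios between -2.53 and -1.05. CG34136 and CG15250 had a q of 0.05 or more in both of the authors' deposited tables, at 0.310 and 0.0631 for CG34136 and at 0.499 and 0.789 for CG15250.

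The members lay on all major chromosome arms. Arm 2L held 8 genes higher and 11 lower in both, arm 2R held 11 and 8, arm 3L held 10 and 8, and arm 3R held 14 and 5. The X held 6 genes higher and 8 lower in both, which made 15.6% of the members against 16.7% of the eligible genes, in a design where smox larvae were male by genotype and no sex is stated for the other groups. The dosage compensation RNA roX1, made in males, stood at 103 FPKM in smox and 63.9 FPKM in w1118, and at 122 FPKM in baboACT and 119 FPKM in MhcGal4. Its partner roX2 stood at 9.30 FPKM in smox and 6.23 FPKM in w1118, and at 24.3 FPKM in baboACT and 36.3 FPKM in MhcGal4, where the authors' deposited table gave a q of 0.000217. No member belonged to the list of sex-biased genes.

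Some members were close neighbors. Within 20 kb of another member lay 18 of the 90, in 9 pairs, and in 7 of the pairs both genes belonged to the same direction. How often other sets of eligible genes lie as close together was not computed, so the count is a description only. CG13323 (chr2R:8934239-8934793) and CG13324 (chr2R:8936647-8937123) lie 1.9 kb apart. LysB and LysS lie 0.6 kb apart, as do Acbp4 and Acbp6, and CG8664 and CG8661 lie 1 kb apart on the X. CG8661 stood at 1.22 FPKM in smox against 5.78 FPKM in w1118 and at 1.61 FPKM in baboACT against 7.65 FPKM in MhcGal4. CG7953 and CG8997 share a single locus of 7 rows, and stood at 5.66 and 6.93 FPKM in smox against 37.2 and 36.1 FPKM in w1118. In baboACT the same 2 genes stood at 11.4 and 4.85 FPKM, against 32.8 and 14.4 FPKM in MhcGal4. All of these pairs were lower in both experiments.

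Beside both neighbor pairs that were higher in both lay genes with a ratio above the limit in smox but not with baboACT. CG7924 (chr3L:14226569-14227710) stood at 706 FPKM in smox against 1.86 FPKM in w1118 and at 63.2 FPKM in baboACT against 15.2 FPKM in MhcGal4. CG7906 (chr3L:14229824-14231372) stood at 683 FPKM in smox against 1.67 FPKM in w1118 and at 108 FPKM in baboACT against 13.7 FPKM in MhcGal4. CG34244, which lies between them, stood at 723 FPKM in smox against 1.53 FPKM in w1118 but at 12.7 FPKM in baboACT against 16.8 FPKM in MhcGal4. The 3 genes thus had similar levels in smox, while with baboACT the middle one had a log2 ratio of -0.40 and a q of 0.0834 in the authors' deposited table. CG5326 stood at 22.5 FPKM in smox against 5.84 FPKM in w1118 and at 8.05 FPKM in baboACT against 3.94 FPKM in MhcGal4, and lies 10.8 kb from bond. Their neighbors CG5278, CG5346 and CG33110 had smox ratios of 0.82, 1.08 and 0.81 and baboACT ratios of 0.62, -0.38 and 0.09 on the log2 scale, so none of these 3 passed the limit in both.

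**Figure D5:**
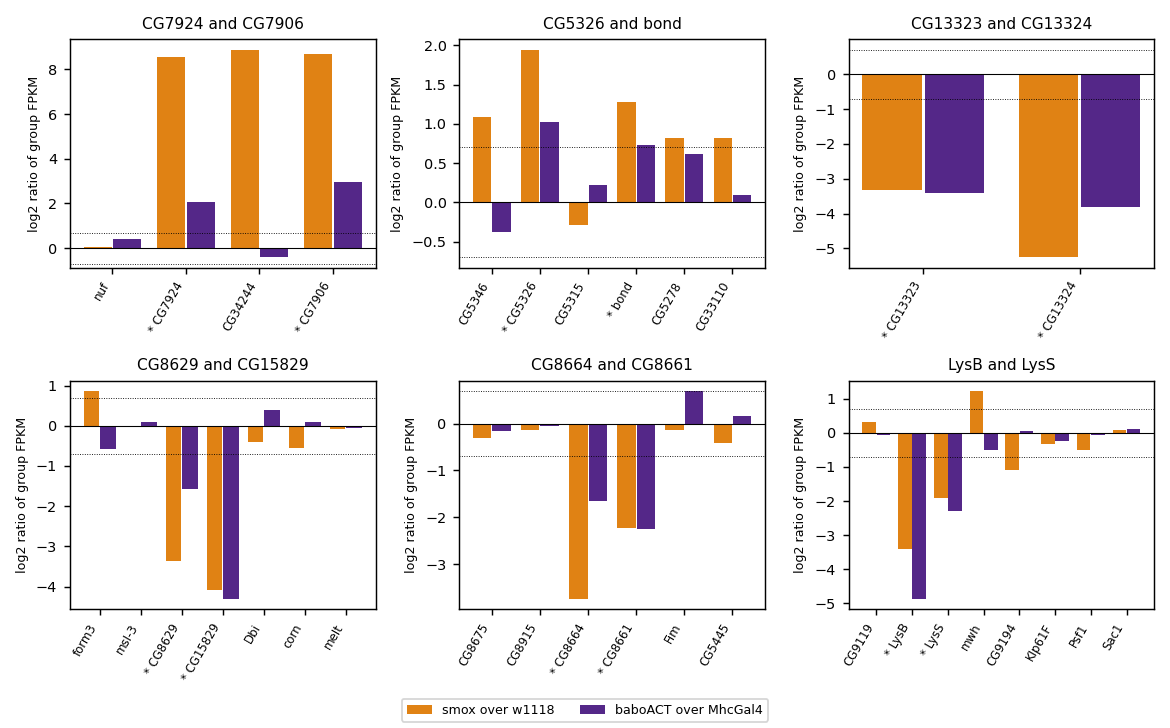
Each panel gives the log2 ratios of group FPKM, smox over w1118 (orange) and baboACT over MhcGal4 (purple), for a pair of neighboring members (asterisks) and the measured genes within 20 kb, ordered along the chromosome, with dotted lines at 0.7 and -0.7. CG34244 has a smox bar as high as those of CG7924 and CG7906 and a baboACT bar below 0, and beside the plotted pairs that were lower in both no other measured gene passes the limit in the same direction in both experiments.

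In 2 pairs the neighbors differed in opposite directions. CG31789, lower in both, lies 10.7 kb from MESR3, a gene found in a screen for Ras suppressors, which stood at 13.2 FPKM in smox against 7.84 FPKM in w1118 and at 11.2 FPKM in baboACT against 5.39 FPKM in MhcGal4. The ceramidase gene bwa lies 0.3 kb from CG42849, which stood at 13.2 FPKM in smox against 26.9 FPKM in w1118 and at 8.84 FPKM in baboACT against 15.3 FPKM in MhcGal4, with a baboACT q of 0.196 in the authors' deposited table. The row of bwa shares its locus with pr, an enzyme gene of eye pigment synthesis, whose log2 ratios were -1.23 in smox and 0.63 with baboACT. In all, 27 of the 90 members share a locus with another row, and such genes may share reads.

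The ecdysone and juvenile hormone list, matched by the names that the tables use, held no member among its 23 measured genes, since Hr4 stands there as CG42527. Its median log2 ratio was -0.11 in smox and 0.30 with baboACT. The authors' deposited tables, at a q below 0.05, gave 6 of these genes as higher and 11 as lower in smox, and 12 as higher and 2 as lower with baboACT. The ecdysone receptor gene EcR and the early genes br, Eip74EF and Eip75B had log2 ratios of -1.11, -1.26, -0.39 and -0.46 in smox and of 0.51, 1.10, 0.74 and 0.87 with baboACT. Of the 23, 6 had ratios above 0 in both. Further genes of the ecdysone response are named here with their values in view. Eip78C was left out of the members by name and stood at 15.9 FPKM in smox against 0.846 FPKM in w1118 and at 28.1 FPKM in baboACT against 0.594 FPKM in MhcGal4. Hr46, which fell short of the level minimum, stood at 1.36 FPKM in smox against 0.388 FPKM in w1118 and at 2.27 FPKM in baboACT against 0.142 FPKM in MhcGal4. Blimp-1 also fell short of it, at 0.835 FPKM in smox against 1.19 FPKM in w1118. With baboACT it stood at 1.43 FPKM against 0.519 FPKM in MhcGal4. Its log2 ratios, -0.52 and 1.46, had opposite signs. Eip93F had both ratios above 0 but was at 0.146 FPKM or less in every group. Eip78C and Hr46 were below 1 FPKM in both comparison carcasses. Developmental stage is known from the labels only.

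Most of the gene lists, matched by the names that the tables use, held none of the members. Of 32 lists, 26 held no member, among them those of sarcomere, neuromuscular junction, fat body, hemocyte, tracheal, proteasome and TGF-beta pathway genes. The summed level of the 24-row fat body list was 4747 FPKM in smox, 2684 FPKM in w1118, 1483 FPKM in baboACT and 2185 FPKM in MhcGal4. In all, 80 of the 90 members were in no list, and 46 have no name beyond a CG number in the annotation used here. The shares of all eligible genes that are in no list or lack a name were not computed. With 90 members among 7595 eligible genes, a short list may well hold none. These counts therefore set the members apart from other genes in no way.

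Genes at the edge of the rule had ratios close to those just beyond it. The members nearest the limit were bond, pncr008:3L and CG15515 among those higher in both, with baboACT ratios of 0.73, 0.70 and 0.70 on the log2 scale. CG15515 stood at 260 FPKM in smox against 87.1 FPKM in w1118 and at 121 FPKM in baboACT against 74.5 FPKM in MhcGal4. Just outside lay CG42269, CG16884 and CG9737, with a smaller ratio of 0.70, 0.69 and 0.69. Among genes lower in both, CG34136 and mnd had smox ratios of -0.74 and -0.73, and CG18428 had a baboACT ratio of -0.72 with a q of 0.0656 in the authors' deposited table. Just outside on that side lay CG31832, CG31373 and CG6933, with baboACT ratios of -0.68, -0.67 and -0.66. CG9737 lies 0.7 kb from the member CG9733, and CG6933 lies 1.4 kb from the member CG17145.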

How the data were processed

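RNA from dissected larval carcass was made into libraries with the TruSeq RNA kit, per the labels' protocols. Cufflinks and Cuffdiff were used, per the submitters' processing notes, which give no version. The aligner, the annotation, the genome build, the strand setting and the way 3 libraries became 1 level are not stated. The authors deposited 2 tables of 13650 rows, and 0 columns hold single libraries. Rows hold, per the file headers, FPKM of both groups, a log2 fold change, a test statistic (a score) and a p-value with its q-value. All rows at the lowest p, 5e-05, share a q of 0.000152 (smox) or 0.000217 (baboACT).

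Log2 ratios were computed from the deposited FPKM without a pseudocount. For the members, the authors' log2 fold change departed from them by at most 1e-05. Depth is unknown, no limma test could be run on group values, and no test was computed here. The members and all 32 gene lists were chosen with earlier results of these data known. Named members were, in each direction, the 15 with the largest smaller ratio, those in a list, those within 20 kb of another, the 5 most abundant in either comparison group and the 3 nearest the limit, which gave 56 of 90, and other members are named with their values in view. Starts in the tables count from 0, so 1 was added. Current names came from RefSeq and BDGP6 annotation, used for names only, by symbol for 71 members and by 1 synonym for 16. Promoter sequences were not used here. Rows that name several genes number 366 in each table and 2 among the members. The selection code was run on simulated ratios set clear of the limit and without noise, which checks the code only. Python 3.11.15, numpy 2.4.6, pandas 2.3.3 and matplotlib 3.10.9 were used.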

Additional observations from a re-analysis of the deposited data

How the results depend on the processing

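The number of members depended on the limits set. The main numbers were 50 higher in both, 40 lower in both, 93 higher in smox and lower with baboACT, and 244 lower in smox and higher with baboACT. With a mean of at least 5 FPKM these became 30, 17, 44 and 152, and with no minimum 166, 148, 289 and 407. A limit of 0.5 gave 88, 61, 155 and 443, and a limit of 1 gave 30, 31, 46 and 122. With a pseudocount of 1 the members were 36 and 30, and 24 of the 90 were lost. Subtracting the median of all genes, -0.15 in smox and 0.08 with baboACT, gave 58, 40, 124 and 183. The sets in opposite directions were thus closer in size than the main 93 and 244. The 40 were not all the same genes, since mnd, nub and CG34136 dropped out and others entered. Keeping the names that were left out gave 62 and 44. Without rows that share a locus or name several genes, an alternative chosen after seeing the data, 35 and 27 were found. Of the 180 member ratios, 29 fell under 0.7 in size with the pseudocount and 9 with the median subtraction. None changed sign, but ratios of at least 0.7 in size could not do so under these settings. Their unchanged signs are therefore no check of the members. A q under 0.01 in place of 0.05 left 66 of the 74 members called in both tables. Replicates could not be left out, since levels are per group. No paired analysis was possible because the tables carry no library values.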

Other observations

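A further 16 genes passed the same values but were left out by name. Of these, 12 were higher in both. The tyrosine hydroxylase gene ple, which starts catecholamine synthesis for cuticle tanning, stood at 580 FPKM in smox against 5.04 FPKM in w1118 and at 177 FPKM in baboACT against 12.9 FPKM in MhcGal4. The gene dro5, of the drosomycin family of antifungal peptides, stood at 406 FPKM in smox against 1.36 FPKM in w1118 and at 121 FPKM in baboACT against 6.75 FPKM in MhcGal4. The gene b, whose enzyme makes beta-alanine for tanning, stood at 112 FPKM in smox against 17.4 FPKM in w1118 and at 21.6 FPKM in baboACT against 4.35 FPKM in MhcGal4. All 3 had a q under 0.05 in both of the authors' deposited tables, and b lies within 20 kb of the members CG7953 and CG8997, which were lower in both. Of the 4 left-out genes lower in both, Jon65Aiii stood at 7.75 FPKM in smox against 83.6 FPKM in w1118 and at 35.3 FPKM in baboACT against 169 FPKM in MhcGal4.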
